A study of Mus musculus with 12 samples.

Results

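The retinoid pathway genes described here are 9 genes that receive, carry or break down retinoic acid: the retinoic acid receptors Rara, Rarb and Rarg, the retinoid X receptors Rxra and Rxrb, the cellular retinoic acid binding proteins Crabp1 and Crabp2, the retinol uptake receptor Stra6 and the retinoic acid hydroxylase Cyp26a1. They were taken by symbol from a fixed list and are 9 of the 51467 genes in the deposited table. A read was found for each of the 9 genes, and 6 passed the filter on low counts (3 CPM, read counts relative to library size, or more in 3 or more libraries). Rarb, Stra6 and Cyp26a1 did not pass it and are described by their reads.

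The samples were mouse embryonic stem cells (ESCs), grown in medium with 15% serum, LIF and the 2 inhibitors of the 2i mixture (PD0325901 against MEK and CHIR99021 against GSK3), and epiblast-like cells (EpiLCs) collected about 56 h after LIF and 2i were removed. Both cell types received 4-thiouridine (4sU), a uridine analogue that marks newly made RNA, at 500 µM for 30 min. Captured 4sU RNA (nascent RNA) and total RNA depleted of ribosomal RNA were each sequenced from 3 libraries per cell type, which gives 4 groups and 12 libraries. Per the labels, RNA of a labelled sample was divided after extraction, so a 4sU and a total library can come from one extract. No genotype separated the groups, and no added retinoid is named for either cell type. Serum is given for the ESC medium only, and the medium of the EpiLCs after LIF and 2i were removed is not described. The labels did not name the ESC line, and the study's resource list gives a reporter line made from V6.5 ESCs, with fluorescent markers at microRNA loci, for its differentiation experiment. The study calls its replicates biological, while the labels do not say whether the 3 libraries of a group came from separate cultures, so the p-values measure the spread between these libraries.

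Retinol enters cells by diffusion or through Stra6, is oxidised to retinal and then to retinoic acid, and is handed to nuclear receptors by binding proteins. Receptors of the RAR family pair with RXR on DNA at direct repeats of a short half-site, where they hold corepressors without ligand and coactivators with it. Retinoic acid is a strong inducer of differentiation in pluripotent cells, and Cyp26 enzymes remove it in the early embryo.

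To show where such receptors can bind next to these genes, the RefSeq promoter windows (GRCm38.p6, 250 bases before to 50 after a gene start) were searched on both strands for direct repeats of the half-sites AGGTCA or GGGTCA or AGTTCA or GGTTCA with a spacer of 5, 2 or 1 bases. The 9 genes had 17 windows, which covered 8 of them, and Crabp2 had no entry. A repeat was found for 2 genes, Rarb and Cyp26a1, each with the spacer of 5. Over all 32851 windows, 0.0974% held a repeat with that spacer, 0.268% one with a spacer of 2 and 0.222% one with a spacer of 1. The 2 stretches that held a repeat are printed. The half-sites are in capitals, and each line ends at the base before the RefSeq gene start, at chr14:16575477-16575571 (minus strand) for Rarb and chr19:37697734-37697807 (plus strand) for Cyp26a1.
Rarb: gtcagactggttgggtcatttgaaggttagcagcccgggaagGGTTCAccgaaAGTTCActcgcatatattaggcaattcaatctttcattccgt
Cyp26a1: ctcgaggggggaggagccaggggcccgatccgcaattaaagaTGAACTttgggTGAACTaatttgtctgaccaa
The Rarb repeat reads along the gene and ends 36 bases before that start, which lies a few bases outside the gene as the deposited table bounds it. The Cyp26a1 repeat lies on the opposite strand, so it appears above as its complement, and it ends 15 bases before the start. A match is a description of letters and not a measured binding site, and no match in the other windows says only that these letters are not there.

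Libraries held 3097693 to 5385644 gene reads for 4sU and 9300845 to 21975684 for total RNA, so low values are least certain in nascent RNA. Both libraries of ESC replicate 3 stood apart on the third principal component, which held 2.28% of the variance: its nascent library scored -35.8 where replicates 1 and 2 scored 5.58 and 6.75, and its total library scored -16.5 where they scored 21.7 and 20.1. The changes of Rarg, Rara and Crabp2, which were lowest there among the ESC libraries, are given with and without it. Of the markers of the labelled states, 9 of 10 naive genes fell and 5 of 6 primed genes rose in EpiLC total RNA. Marker sums of other cell types also differed between the groups in total RNA, except for mesendoderm. The sum of 6 mesendoderm genes ran from 17.3 to 28.2 CPM in ESCs and from 21.0 to 31.1 in EpiLCs, which overlapped. The summed total RNA of 6 neurectoderm genes ran from 44.1 to 94.4 CPM in ESCs and from 399 to 456 in EpiLCs, that of 8 primitive endoderm genes from 62.1 to 78.6 and from 213 to 225, and that of 8 fibroblast genes from 3.88 to 4.78 and from 14.9 to 19.7. In the EpiLC total libraries none of the neurectoderm genes, 0 to 2 of the primitive endoderm genes and 1 to 2 of the fibroblast genes were at 0 reads. Most of the primitive endoderm sum was Col4a1 (mean 61.0 CPM in ESCs and 199 in EpiLCs), and most of the neurectoderm sum was Nes (48.5 and 391). Of 5 primitive endoderm genes tested, 3 were called higher (Gata4, Dab2 and Col4a1) and 1 lower (Sox17) by the rule given below. Of 2 trophoblast genes tested, 1 was called higher and 1 lower by that rule. Over all genes tested, 16.3% were called higher and 11.2% lower. The part of such cell types in the results was not tested. In bulk RNA, fewer cells of a type and less RNA per cell cannot be told apart.

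In total RNA, Rarg and Crabp2 rose in EpiLCs and no retinoid gene fell by the study's rule, an adjusted p under 0.05 (limma-voom, Benjamini-Hochberg over 14731 genes) and a log2 fold change over 1 in size. These are 2 of the 6 genes tested, and 16.3% of all genes tested were called higher and 11.2% lower. By the adjusted p alone all 6 differed, 4 higher (Rarg, Rxra, Rxrb and Crabp2) and 2 lower (Rara and Crabp1), where 31.4% of all genes tested were higher and 32.1% lower. The same 2 were the ones lower at an unadjusted p under 0.05, and neither edgeR's quasi-likelihood test nor DESeq2 called a gene of the 6 lower. The median log2 fold change of the 6 genes was 0.43, against 0.02 over all genes tested. In nascent RNA only Crabp1 was called, as lower, where 13.5% of all genes tested were called lower and 11.9% higher. None was called higher there, although 2 of the 6 were higher at an unadjusted p under 0.05 (Rarg and Rxrb), edgeR's quasi-likelihood test called none and DESeq2 called 1, Crabp2. The median nascent log2 change of the 6 genes was 0.36, against -0.09 over all genes tested.

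**Figure D1:**
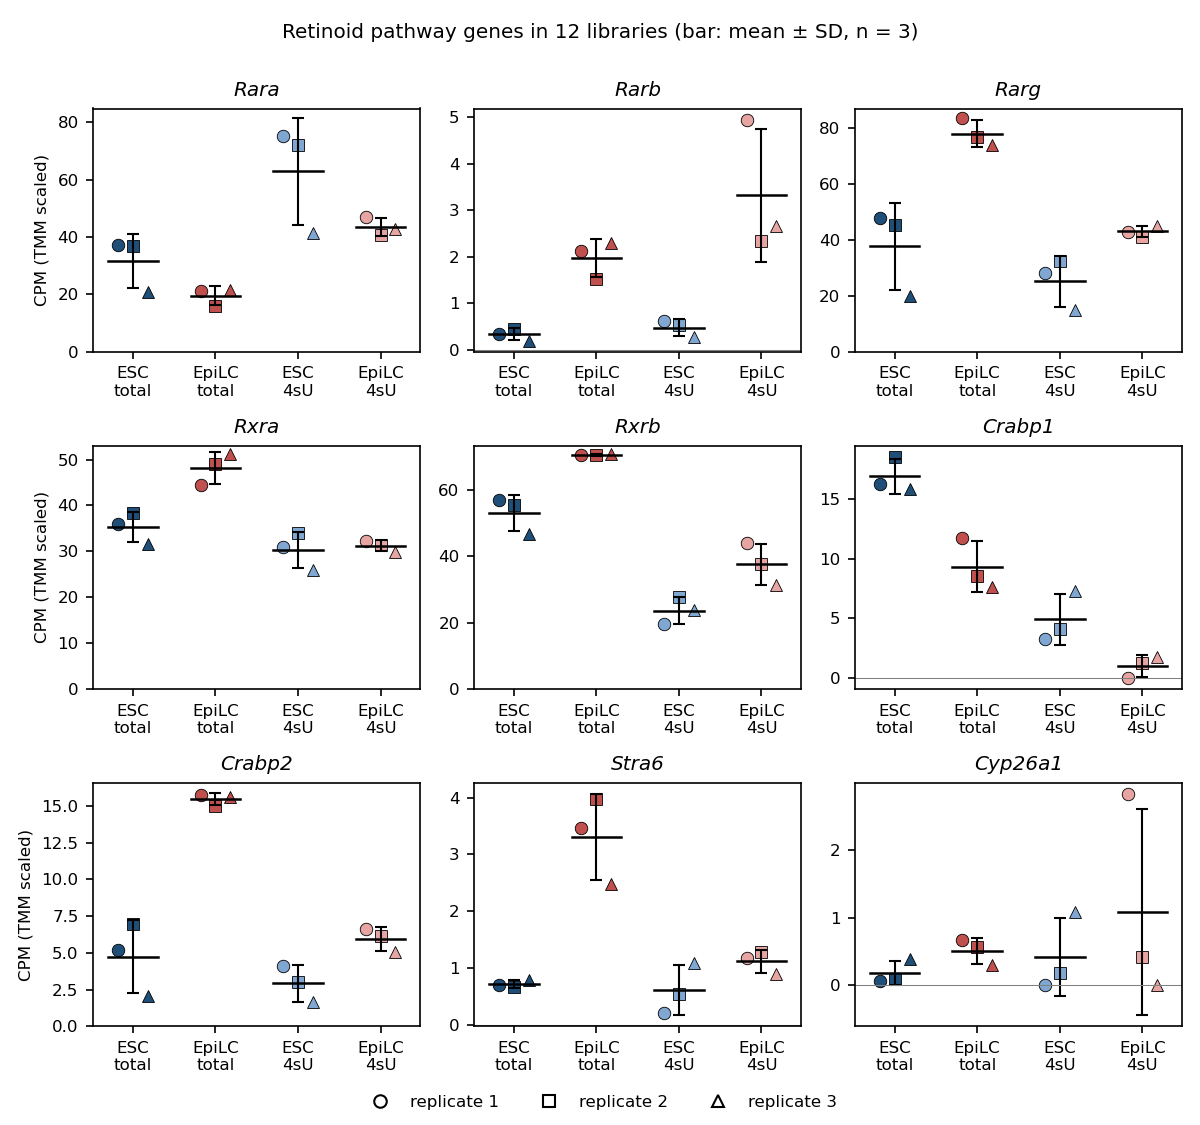
Expression of the 9 retinoid pathway genes, 1 panel each, as TMM-scaled CPM (vertical axis) in each library of the 4 groups (horizontal axis). Symbols mark replicates, the long bar is the group mean and the error bar the SD (n = 3). Rarg in total RNA sits at 74.0 to 83.6 CPM in EpiLCs, above the ESC libraries at 19.9 to 47.7, and ESC replicate 3 (triangle) is the lowest ESC library for Rara, Rarb, Rarg, Rxra and Crabp2 in both assays.

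Among the receptors that bind retinoic acid itself, the balance between Rara and Rarg differed between the cell types. Rarg, the RAR that is prominent in the early embryo, lies on chromosome 15 (102234938 to 102257517, minus strand, mm10). Its total RNA was 47.7, 45.5 and 19.9 CPM in ESC replicates 1, 2 and 3 and 83.6, 76.7 and 74.0 CPM in the EpiLC replicates. The groups did not overlap, and the third ESC library was well below the other ESC libraries. Such separation was common in total RNA. Of the 14731 genes tested, 4932 had all EpiLC libraries above all ESC libraries and 5167 had them all below. Rarg rose by a log2 fold change of 1.10 ± 0.24 (SE), 2.14-fold (limma-voom adjusted p = 0.00109). Without the total library of ESC replicate 3 the change was 0.74 (limma-voom adjusted p = 0.000113), and without both libraries of that replicate it was 0.73 (limma-voom adjusted p = 2.5e-08), so the difference remained below the adjusted p threshold while the 2-fold threshold was no longer met.

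Nascent Rarg was 28.2, 32.6 and 14.9 CPM in ESCs and 42.9, 41.1 and 45.1 CPM in EpiLCs. Again every EpiLC library was above every ESC library, and ESC replicate 3 was the lowest. In nascent RNA 3923 of the 14731 genes were separated in this direction and 5025 in the other. The nascent log2 fold change was 0.77 ± 0.36 (limma-voom adjusted p = 0.0843). Without the 4sU library of ESC replicate 3 it was 0.55 (limma-voom adjusted p = 0.233), and without both libraries of that replicate it was 0.47 (limma-voom adjusted p = 0.0025), a smaller change with a smaller p.

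Rara encodes the RAR found in most tissues and lies on chromosome 11 (98927818 to 98974942, plus strand). Its total RNA was 37.3, 36.8 and 20.7 CPM in ESCs and 21.3, 15.9 and 21.6 CPM in EpiLCs. ESC replicate 3 lay within the EpiLC range and the other ESC libraries above it, so the groups overlapped through 1 library. The log2 fold change was -0.70 ± 0.24 (limma-voom adjusted p = 0.0201), short of 2-fold, and without the total library of ESC replicate 3 it was -0.94 (limma-voom adjusted p = 0.000261). Nascent Rara was 75.2, 72.1 and 41.5 CPM in ESCs and 46.9, 40.9 and 42.7 CPM in EpiLCs. The pattern over the libraries was that of total RNA, with a nascent log2 fold change of -0.52 ± 0.26 (limma-voom adjusted p = 0.101). Without the 4sU library of ESC replicate 3 it was -0.70 (limma-voom adjusted p = 0.0242), and without both libraries of that replicate -0.79 (limma-voom adjusted p = 8.14e-06).

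Compared per kilobase of exon, so that genes of different length can be set side by side, Rarg made up 58.8% ± 3.84 (SD, n = 3) of RAR RNA in ESC total libraries and 81.5% ± 2.64 in EpiLC total libraries. In nascent RNA its share was 33.0% ± 2.70 in ESCs and 53.0% ± 2.60 in EpiLCs, and Rara held 66.3% ± 2.69 and 42.4% ± 1.06. The shares did not overlap between the cell types in either assay. ESC replicate 3 was close to the other ESC libraries on this measure, with 54.4% Rarg in total RNA against 61.4% for the highest ESC library, although its summed RAR level was 10.8 CPM per kb against 22.9 in the highest. With 3 against 3 libraries an exact two-sided permutation test cannot go below 0.10, so the shares are given without a test. The RAR sum itself was 18.6 ± 6.79 CPM per kb in ESC total RNA and 28.2 ± 1.84 in EpiLC total RNA. ESC replicates 1 and 2, at 22.9 and 22.1, also lay below the lowest EpiLC library at 26.8.

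**Figure D2:**
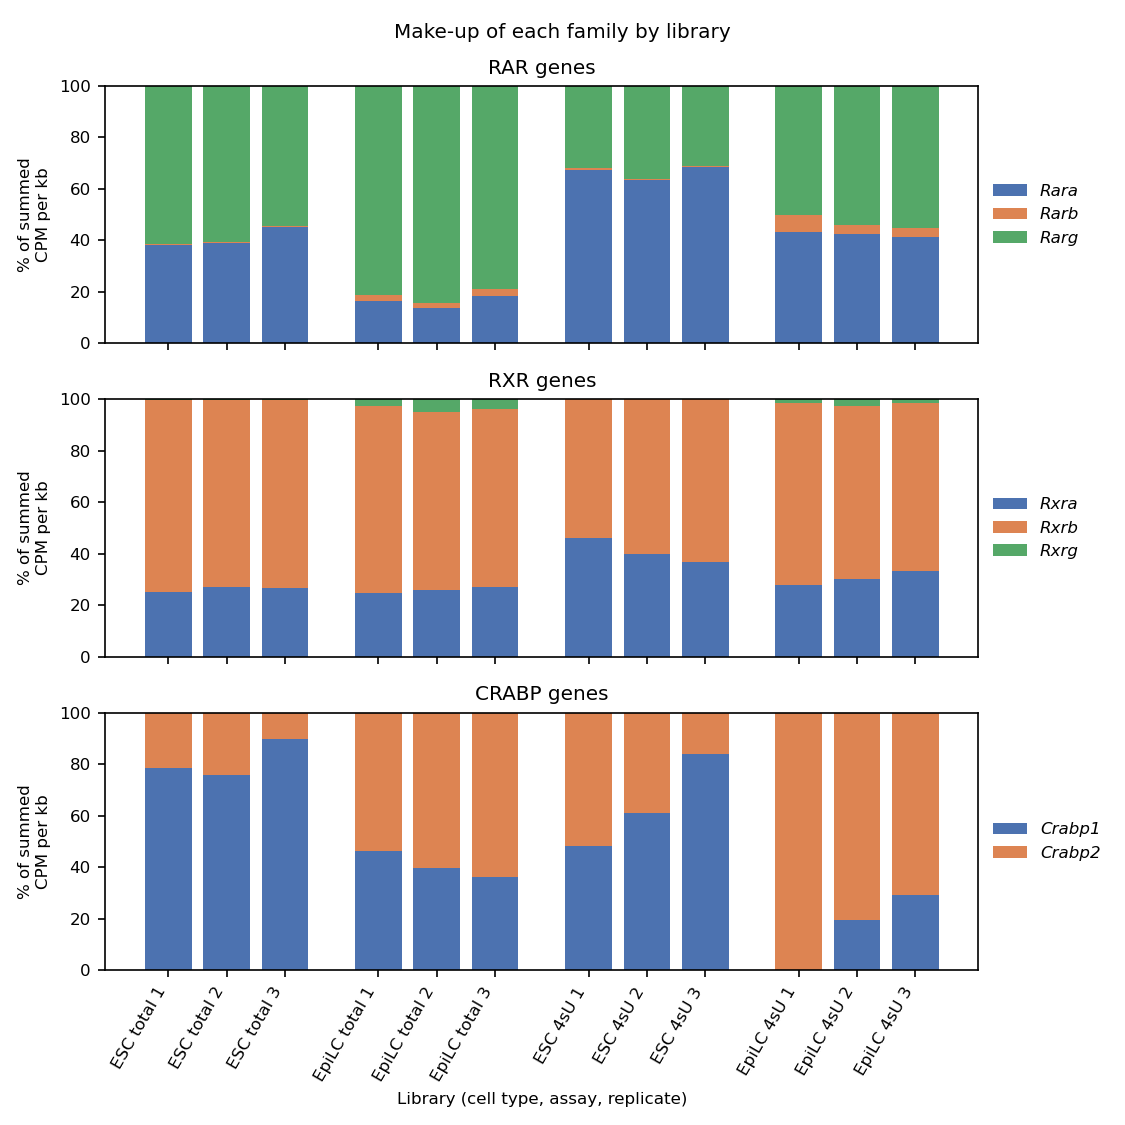
Share of each gene in the summed CPM per kilobase of its family (vertical axis, percent) in each of the 12 libraries (horizontal axis), for the RAR, RXR and CRABP genes. Rarg takes 79.0% to 84.3% of RAR total RNA in EpiLCs and 54.4% to 61.4% in ESCs, and Crabp2 takes 53.6% to 63.7% of CRABP total RNA in EpiLCs and 10.1% to 24.4% in ESCs.

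Rarb, whose promoter repeat is printed above, is itself a standard target of retinoic acid (chromosome 14, 16430842 to 16575472, minus strand). Its exons overlap those of Top2b on the other strand, and reads were counted by strand. It had 6, 9 and 2 reads in ESC total libraries and 19, 16 and 23 in EpiLC total libraries, and in 4sU libraries 3, 3 and 1 against 21, 11 and 9. As CPM, all EpiLC libraries were above all ESC libraries in both assays, at low levels throughout. Pooled over the 3 total libraries, Rarb stood at 0.325 CPM of library totals in ESCs (exact 95% Poisson interval 0.189 to 0.520) and 1.89 in EpiLCs (1.43 to 2.44), intervals that cover counting error only. Fitted without the filter on low counts, its log2 fold change was 2.37 in total RNA (limma-voom adjusted p = 0.000196) and 2.55 in nascent RNA (limma-voom adjusted p = 0.00078), where 13.2% of 32144 genes in total RNA and 8.86% in nascent RNA were called higher. Even so Rarb held 2.30% ± 0.43 of RAR total RNA in EpiLCs and 0.593% ± 0.087 in ESCs.

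The RXR partners were more even. Rxrb, on chromosome 17 (34031812 to 34038393, plus strand), was 56.8, 55.3 and 46.8 CPM in ESC total libraries and 70.4, 70.3 and 70.7 CPM in EpiLC total libraries. The EpiLC libraries were almost level and stood above each ESC library. The log2 fold change was 0.41 ± 0.10 (limma-voom adjusted p = 0.00324), and it was 0.68 ± 0.16 in nascent RNA (limma-voom adjusted p = 0.00303), where 23.7% of all genes tested were higher by the adjusted p alone. Rxra, on chromosome 2 (27677201 to 27762957, plus strand), was 36.0, 38.3 and 31.7 CPM in ESC total libraries and 44.4, 49.0 and 51.3 CPM in EpiLC total libraries. Those groups did not overlap either (log2 fold change 0.44 ± 0.10, limma-voom adjusted p = 0.000957). Nascent Rxra ran from 26.0 to 34.0 CPM in ESCs and from 30.0 to 32.3 CPM in EpiLCs, and these ranges overlapped (log2 fold change 0.03, 95% interval -0.26 to 0.33).

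Per kilobase Rxrb exceeded Rxra in each library, with 73.5% ± 0.83 of RXR total RNA in ESCs and 70.4% ± 2.01 in EpiLCs. By plain counts, which favour longer genes, Rxra was the larger in the ESC 4sU libraries, with 61.4%, 55.2% and 52.2% of RXR reads. The remaining member of that family, Rxrg, is not among the 9 genes but completes the family share. It had 3, 1 and 1 reads in ESC total libraries and 20, 45 and 33 in EpiLC total libraries, a pooled ratio of 33.4 (95% counting interval 13.8 to 105). At that level Rxrg held 3.85% ± 1.13 of RXR total RNA in EpiLCs.

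Of the binding proteins, Crabp2 was higher and Crabp1 lower in EpiLCs. Crabp2, which carries retinoic acid to the nucleus, lies on chromosome 3 (87948666 to 87953376, plus strand). It was 5.21, 6.95 and 2.06 CPM in ESC total libraries and 15.7, 15.0 and 15.6 CPM in EpiLC total libraries. The groups were well separated, and the third ESC library was again the lowest. Crabp2 rose by a log2 fold change of 1.70 ± 0.26, 3.24-fold (limma-voom adjusted p = 5.14e-05), and by 1.34 without the total library of ESC replicate 3 (limma-voom adjusted p = 1.47e-06). Its nascent RNA was 4.09, 3.04 and 1.63 CPM in ESCs and 6.60, 6.15 and 5.04 CPM in EpiLCs, from 6 to 29 reads per library. The nascent groups did not overlap, with a log2 fold change of 1.04 ± 0.53 (limma-voom adjusted p = 0.114), and the result depended on the fit: DESeq2 gave an adjusted p of 0.0307, and limma-voom without the total library of ESC replicate 3 gave 0.0113. Without both libraries of that replicate the nascent change was 0.73 (limma-voom adjusted p = 0.0466), short of 2-fold.

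Crabp1, a cytoplasmic carrier linked to retinoic acid breakdown, lies on chromosome 9 (54764748 to 54773110, plus strand). It was 16.3, 18.5 and 15.8 CPM in ESC total libraries and 11.7, 8.53 and 7.65 CPM in EpiLC total libraries. All EpiLC libraries were below all ESC libraries, and ESC replicate 3 lay near the others. The log2 fold change was -0.90 ± 0.22 (limma-voom adjusted p = 0.00226), short of 2-fold, and it passed that threshold without the total library of EpiLC replicate 1 (-1.06). Nascent Crabp1 had 16, 23 and 27 reads in ESCs and 0, 6 and 6 reads in EpiLCs. It fell by 2.79 ± 0.77 on the log2 scale (limma-voom adjusted p = 0.0071). That call rests on the EpiLC library with 0 reads, since without it the change was -1.44 (limma-voom adjusted p = 0.0514).

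The sum of the binding proteins was alike in both cell types, 26.1 ± 4.31 CPM per kb in ESC total RNA and 28.2 ± 2.89 in EpiLC total RNA. Within it, Crabp2 held 18.7% ± 7.59 in ESCs and 59.2% ± 5.12 in EpiLCs, with no overlap. In nascent RNA its share was 35.6% ± 18.1 in ESCs and 83.9% ± 14.8 in EpiLCs. Crabp1 thus gave way to Crabp2 as the more abundant binding protein RNA per kilobase, in each of the 3 EpiLC total libraries.

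**Figure D3:**
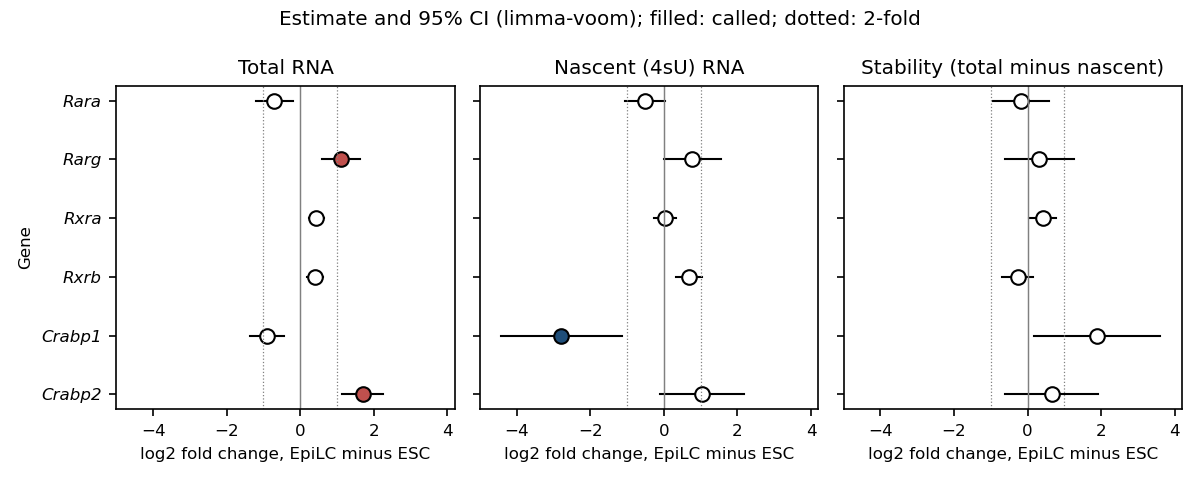
Fitted log2 fold change, EpiLC minus ESC (horizontal axis), with its 95% confidence interval for the 6 genes tested (vertical axis) in total RNA, nascent RNA and stability. Filled points passed the adjusted p and the 2-fold threshold (dotted lines): Rarg at 1.10 and Crabp2 at 1.70 in total RNA and Crabp1 at -2.79 in nascent RNA.

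Genes for uptake and breakdown of retinoids were barely expressed. Stra6, the membrane receptor for retinol bound to its serum carrier (chromosome 9, 58129088 to 58153996, plus strand), had 12, 13 and 8 reads in ESC total libraries and 31, 42 and 25 in EpiLC total libraries. Each EpiLC total library was above each ESC total library, at 2.49 to 3.98 CPM against 0.654 to 0.786. Without the filter its log2 fold change was 2.10 (limma-voom adjusted p = 5.38e-05). With it 4 of the 9 genes were called higher in total RNA in that fit, Rarb, Rarg, Crabp2 and Stra6, against 13.2% of its 32144 genes. In 4sU libraries Stra6 had 1, 3 and 4 reads in ESCs and 5, 6 and 3 in EpiLCs, and the ranges overlapped.

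Cyp26a1, the enzyme that clears retinoic acid and a sensitive retinoic acid target (chromosome 19, 37697808 to 37701528, plus strand), had 1, 2 and 4 reads in ESC total libraries and 6, 6 and 3 in EpiLC total libraries. The ranges overlapped at 0.0579 to 0.393 and 0.298 to 0.669 CPM. Pooled, this is 0.134 CPM of library totals in ESCs (exact 95% Poisson interval 0.0538 to 0.276) and 0.488 in EpiLCs (0.273 to 0.805). In EpiLC 4sU libraries it had 12, 2 and 0 reads, so nearly all came from replicate 1. That library also had the highest sum of 6 mesendoderm markers among the EpiLC 4sU libraries, 98.5 CPM against 44.7 in the lowest, and the part of such cells in the Cyp26a1 reads was not tested.

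Relative mRNA stability, the log2 ratio of total to 4sU RNA of the same cell type and replicate number (with 0.5 CPM added to both), placed the 6 genes over a wide range. Rara was low, at -0.98 ± 0.02 (SD, n = 3) in ESCs and -1.14 ± 0.18 in EpiLCs, at percentiles 25.3 and 20.3 of the genes kept. Rarg was above the median gene, at 0.54 ± 0.18 in ESCs and 0.85 ± 0.13 in EpiLCs. No value of Rara lay near any value of Rarg in either cell type, so the pair of receptors differed in total to nascent ratio in each replicate. Crabp1 had the highest mean ratio of the 6, at 1.75 ± 0.60 in ESCs, above 92.1% of genes, and 2.93 ± 1.48 in EpiLCs, where the value of 4.61 for replicate 1 rests on 0 nascent reads. Crabp2 was at 0.55 ± 0.45 and 1.32 ± 0.19, Rxrb at 1.16 ± 0.32 and 0.91 ± 0.24, and Rxra at 0.22 ± 0.05 and 0.62 ± 0.16. Over all genes kept the median was 0.05 in ESCs and 0.15 in EpiLCs.

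**Figure D4:**
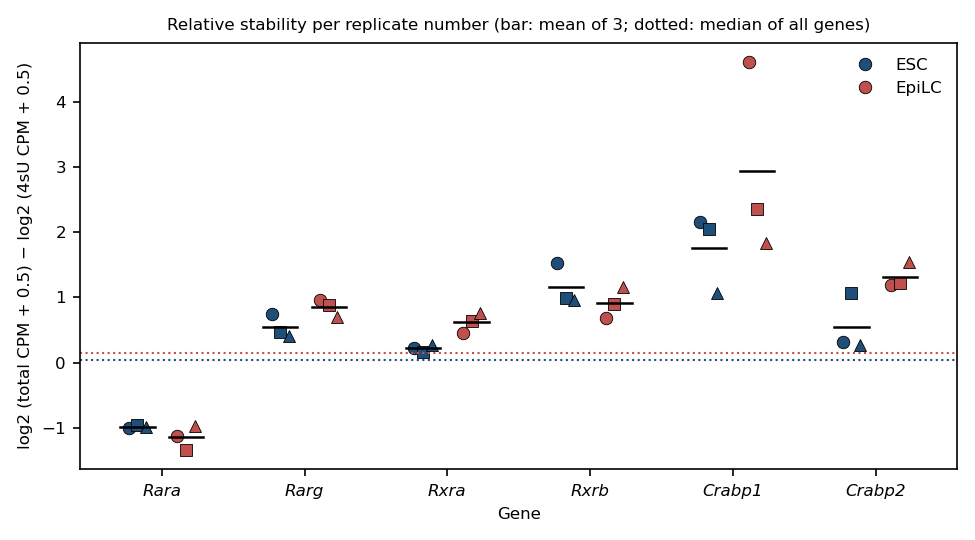
Relative stability, log2 total minus log2 4sU CPM with 0.5 CPM added (vertical axis), of the 6 genes tested (horizontal axis), 1 point per cell type and replicate number, with the mean of 3 as a bar and the median of all genes as dotted lines. Rara lies below 0 and the other 5 genes lie above it in all 6 values, and the highest point is Crabp1 in EpiLC replicate 1 at 4.61.

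The interaction of cell type and assay, which tests whether the total RNA change differs from the nascent change, called none of the 6 genes (limma-voom). At an unadjusted p under 0.05 it held 2 of them, Rxra (0.41 ± 0.17, adjusted p = 0.167) and Crabp1 (1.89 ± 0.80, adjusted p = 0.175), both higher, and edgeR and DESeq2 called none. Without both libraries of ESC replicate 3 the Rxra difference was 0.44 (limma-voom adjusted p = 0.0364), still short of 2-fold. Over all genes tested, 1.24% were called higher and 0.305% lower. The intervals were wide for the binding proteins, 0.18 to 3.59 for Crabp1 and -0.62 to 1.92 for Crabp2, and that of Rarg ran from -0.60 to 1.25. A 2-fold difference in stability lies inside each of these intervals.

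Other genes of retinoid uptake, storage, oxidation, carriage and reception formed a list of 33, of which 10 were tested. In total RNA 4 rose (Rdh10, Rdh11, Dhrs3 and Fabp5) and 1 fell (Aldh1a2), with a median change of 0.20 over the 10. Over all genes tested, 16.3% were called higher and 11.2% lower. The 3 largest changes are given. Aldh1a2, which makes retinoic acid from retinal, went from 6.86 ± 1.32 to 0.924 ± 0.578 CPM (log2 fold change -3.02 ± 0.38, limma-voom adjusted p = 6.77e-06), with 57 to 142 reads in ESC libraries and 3 to 15 in EpiLC libraries. Fabp5, a fatty acid binding protein that can carry retinoic acid to a different receptor, went from 3.94 ± 2.46 to 13.7 ± 0.72 CPM (2.10 ± 0.28, limma-voom adjusted p = 1.24e-05). Rdh10, the retinol dehydrogenase of the first oxidation step, went from 6.73 ± 0.48 to 18.5 ± 2.44 CPM (1.46 ± 0.14, limma-voom adjusted p = 3.95e-07). Rdh11 (1.10) is a retinol dehydrogenase of the same family of enzymes as Dhrs3 (1.40), which reduces retinal back to retinol. In nascent RNA 3 of the 10 were called higher (Rdh10, Rdh11 and Dhrs3) and 1 lower (Aldh1a2), against 11.9% and 13.5% of all genes tested.

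Among 16 corepressors and coactivators of nuclear receptors, all of them tested, 1 rose and 2 fell in total RNA, and none of these 3 was a corepressor. These counts stand beside 16.3% of all genes tested called higher and 11.2% called lower. Kat2b, an acetyltransferase, went from 138 ± 6.81 to 38.1 ± 5.25 CPM (log2 fold change -1.86 ± 0.12, limma-voom adjusted p = 5.62e-09). Ncoa3, a coactivator of the p160 class, went from 258 ± 27.2 to 105 ± 3.46 CPM (-1.29 ± 0.09, limma-voom adjusted p = 9.47e-09), and Ep300, an acetyltransferase, from 68.9 ± 15.2 to 142 ± 9.75 CPM (1.08 ± 0.12, limma-voom adjusted p = 2.85e-06). Of 12 other nuclear receptors that pair with RXR, 4 were tested, and their log2 changes, from -0.33 for Nr1h2 (limma-voom adjusted p = 0.0101) to 0.27 for Nr4a2 (limma-voom adjusted p = 0.474), were all short of 2-fold.

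Genes known to respond to retinoic acid did not move one way. Of 16 listed, 8 were tested, 2 rose (Dhrs3 and Meis1) and 2 fell (Cdx1 and Gbx2) in total RNA, and the median change was 0.24. The shares over all genes tested were 16.3% higher and 11.2% lower. Cdx1, a homeobox gene of the posterior body axis, went from 133 to 598 reads per ESC library to 1 to 6 per EpiLC library (log2 fold change -6.26 ± 1.05, limma-voom adjusted p = 0.000114). Dhrs3, which is on both lists, has its change given above. Gbx2, a homeobox gene also driven by LIF, went from 9.94 ± 2.40 to 2.55 ± 0.46 CPM (-1.97 ± 0.42, limma-voom adjusted p = 0.00084). In nascent RNA 1 of the 8 was called higher (Dhrs3) and 2 lower (Cdx1 and Gbx2), against 11.9% and 13.5% of all genes tested. Fitted without the filter, 4 of the 16 were called higher and 3 lower in total RNA. Over the 32144 genes of that fit, 4241 were called higher and 2866 lower. Genes called there that the filter had removed were Hoxb1 (3.89), Hoxb2 (3.38) and Nr2f2 (2.88), higher, and Stra8 (-3.95), lower. Hoxb1, Hoxb2 and Nr2f2 had at most 17 reads in a total library.

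The genes whose profiles over the 12 libraries lay nearest to each receptor or binding protein were found by the root mean square distance between centred log2 CPM, among 14731 genes. Nearest to Rarg were Stx3 (distance 0.167, r = 0.97) and Frem2 (0.176, r = 0.98). Frem2 was also the nearest to Crabp2 (0.247, r = 0.97), followed by Irf8 (0.248, r = 0.96). Ucp2 (0.201, r = 0.96) and Zfp655 (0.215, r = 0.95) were nearest to Rara, Mettl4 (0.0721, r = 0.97) and Lsm8 (0.0874, r = 0.95) to Rxra, and Vsig10 (0.114, r = 0.99) and Prmt1 (0.125, r = 0.98) to Rxrb. Crabp1 lay at a larger distance from its nearest genes, Ap1s1 (0.468, r = 0.95) and Tstd3 (0.472, r = 0.95). The points share libraries and fall into 4 groups, so r describes likeness and carries no test.

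Within ESCs, the receptors and binding proteins differed in how far ESC replicate 3 lay from the other libraries of its group. The difference is log2 CPM (with 0.5 CPM added) of that library minus that of the mean of replicates 1 and 2. It was looked at after the values were seen and carries no test. Of the 6 retinoid genes kept, 3 were lower by more than 0.5 in total RNA, Rarg (-1.21), Crabp2 (-1.36) and Rara (-0.82), where 6.86% of all genes kept were. The same 3 were lower in 4sU RNA, Rarg at -1.003, Crabp2 at -0.93 and Rara at -0.82, where 10.8% of all genes kept were lower by more than 0.5. Crabp1 did not follow, at -0.13 in total RNA and 0.90 in 4sU RNA. Marker sums also differed in that replicate, not all in the same direction. The neurectoderm sum was 47.2, 44.1 and 94.4 CPM in the total libraries of ESC replicates 1, 2 and 3 and 42.1, 48.8 and 100.6 CPM in their 4sU libraries, where 3 of the 6 genes were at 0 in replicate 3. Nes was the largest part of the neurectoderm sum in replicate 3, at 76.3 CPM in total RNA and 70.0 CPM in 4sU RNA. The sum of the general pluripotency markers Pou5f1, Sox2 and Sall4 was 1716, 1698 and 1609 CPM in total RNA and 1923, 2029.8 and 1198 CPM in 4sU RNA. Most of that 4sU difference was Sox2, at 701 CPM in replicate 3 and 1327 CPM in the highest ESC library. The part of such cells in the values of ESC replicate 3 was not tested.

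**Figure D5:**
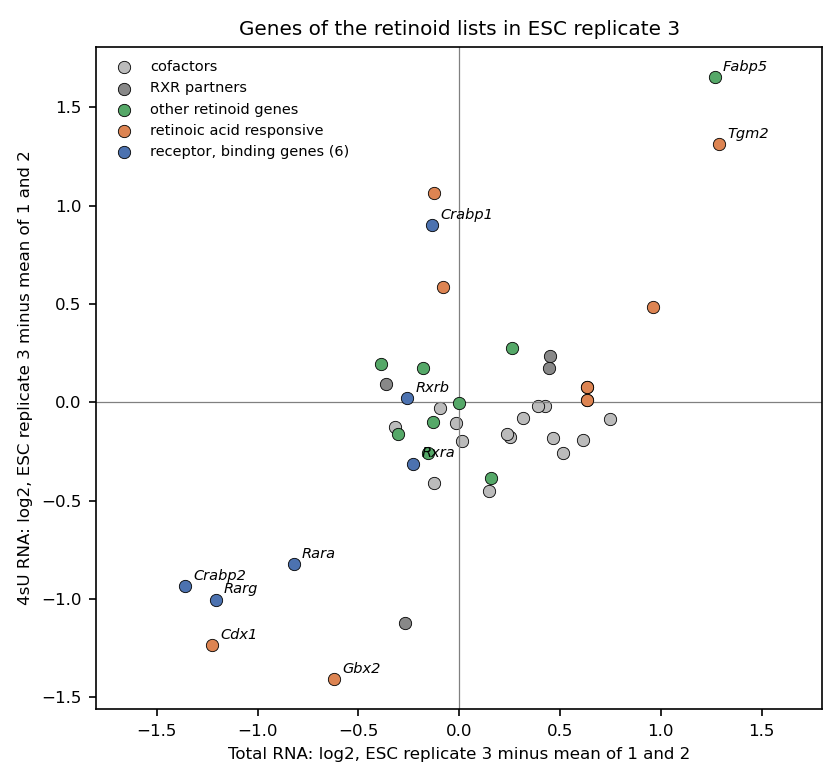
Log2 CPM of ESC replicate 3 minus that of the mean of ESC replicates 1 and 2, in total RNA (horizontal axis) and 4sU RNA (vertical axis), for the genes kept from the retinoid lists, 1 point a gene. Rara, Rarg and Crabp2 lie below 0 on both axes, from -0.82 to -1.36 in total RNA, while Rxrb and Crabp1 lie near 0 or above it in 4sU RNA.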

How the data were processed

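Per the labels and the file header, the authors trimmed reads with cutadapt 1.14, aligned them to mm10 with STAR 2.5.3a, kept unique alignments and made deposited raw read counts per gene with featureCounts 1.5.3 over GENCODE M14 exons, strand by strand and without ribosomal RNA genes. Unique alignment lowers counts of genes with near copies. The 92 spike-in entries held 0 reads. Library totals are given in the report, and intervals cover counting error only.

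After the study's methods, a voom model was fitted to the 4 groups (12 libraries) in R 4.3.3 with limma 3.58.1, after TMM scaling by edgeR 4.0.16. It covered 14731 genes that reached 3 CPM in 3 or more libraries. It was tested on simulated data. A call needed a limma-voom adjusted p (Benjamini-Hochberg) under 0.05 and a log2 fold change over 1 in size. Levels are TMM-scaled CPM. Symbols came from GENCODE M21 (99.6% of gene IDs), positions from the deposited table, and promoter windows from RefSeq. Outside the 9 genes, at most the 3 largest called changes per list are described with values, and the 2 nearest profiles per gene. Rdh11, Dhrs3, Meis1, Nr1h2, Nr4a2, Stra8, Tgm2, Rxrg, Hoxb1, Hoxb2, Nr2f2, Col4a1, Nes, Gata4, Dab2, Sox17 and Sox2 were named after their values were seen. The 9 genes and all lists were chosen with earlier results of these data known, and some listed genes are not reported here. As alternatives, the scaling, the filter, weights per sample, a replicate block, DESeq2 1.42.0 and the quasi-likelihood test of edgeR were tried, and each library was left out in turn. Python 3.11.15 with scipy 1.17.1 was used for shares, ratios and intervals.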

Additional observations from a re-analysis of the deposited data

How the results depend on the processing

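Over 22 alternatives each, 380 of 396 gene values kept their direction and their side of the threshold. Most of these values were not called in the main fit, and one that stayed uncalled counts as kept. The Rarg call in total RNA was lost in 3 alternatives and the Crabp1 call in nascent RNA in 1. The Crabp2 call in total RNA was kept in all 22. In total RNA the 2 members called higher became 1 (Crabp2 alone) with sample quality weights or without both libraries of ESC replicate 3, and 4 without the filter or by the adjusted p alone. The 0 called lower became 2 by the adjusted p alone. In nascent RNA the 0 called higher became 1 without the filter (Rarb), with DESeq2 or each assay fitted on its own (Crabp2), or by the adjusted p alone (Rxrb). For other retinoid genes, the 4 called higher became 7 without the filter, and the 1 called lower became 3 by the adjusted p alone. Over all genes of the fit without the filter, 13.2% were called higher in total RNA and 8.86% in nascent RNA. By the adjusted p alone 31.4% were higher and 32.1% lower in total RNA, and 23.7% were higher in nascent RNA. Leaving out 1 library at a time gave 1 to 2 members higher and 0 to 1 lower in total RNA, 0 to 1 higher and 0 to 1 lower in nascent RNA, 0 in stability, and 4 higher and 1 lower among other retinoid genes. The Rxra nascent change of 0.034 became -0.034 with quality weights and -0.079 without ESC replicate 3 (up to 0.17 without 1 library), the Rarg stability change ran from -0.031 without the total library of ESC replicate 3 to 0.52 without its 4sU library, and Rxra relative stability in ESCs became -0.0034 with CPM of library totals. From plain counts, which favour longer genes, the Rarg share was 53.2% and 78.4% in ESC and EpiLC total RNA and 28.1% and 48.0% in 4sU RNA. The cause of the other changes was not tested.

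Replicate numbers were shared across groups, and the deviations of same-numbered libraries were correlated. Between ESC and EpiLC libraries of the same assay the correlations ran from -0.18 to 0.0063. With 3 libraries per group and ESC replicate 3 apart, they cannot show whether these samples share more than a number. Between the 4sU and total libraries of a cell type, which the labels say can share an extract without saying that the number marks it, they were 0.24, 0.42 and 0.50 in ESCs and 0.11, 0.081 and 0.024 in EpiLCs, so not every pair was over 0.1. With the replicate number as a block, 2 members were called higher and 0 lower in total RNA and 0 higher and 1 lower in nascent RNA, and with the block by number or by culture (cell type and number) 0 in stability. With the block by culture the stability change was 0.41 for Rxra (limma-voom adjusted p = 0.0798) and 1.56 for Crabp1 (limma-voom adjusted p = 0.2). Depth limits the nascent values most, since Crabp1, Crabp2, Rarb, Stra6 and Cyp26a1 had at most 29 reads in each 4sU library.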

Other observations

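The retinoid lists also held genes outside the 9 that set ESC replicate 3 apart from replicates 1 and 2 of its group, on the same log2 scale. Cdx1 (-1.23 in total RNA and -1.23 in 4sU RNA) and Gbx2 (-0.62 and -1.41) were low there, and Stra8, named for its stimulation by retinoic acid, was at -1.28 and -0.67, from 121, 145 and 27 reads in the ESC total libraries. Other listed genes went the other way: Fabp5 was at 1.27 and 1.65 and Tgm2 at 1.29 and 1.31. Over the 8 responsive genes kept the median was 0.28 in total RNA and 0.28 in 4sU RNA.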
